A study of Mus musculus with 6 samples.

Results

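Transcription factor genes of the mesenchyme around the eye, namely Prrx1, Prrx2, Foxc1, Foxc2, Twist2, Tcf21, Meox2, Osr1 and Tbx15, were examined in RPE-choroid of mice with subretinal fibrosis. These are 9 of the 15663 genes listed for each library. Prrx2 was chosen because it was higher in the fibrosis libraries of these same data, so its difference between the groups is described here without a test. The other 8 genes were chosen by their known roles, though with earlier results of these data known. They serve to see whether factors of this mesenchyme moved with Prrx2, and all 9 had enough reads to enter the fit. The tissue holds the retinal pigment epithelium (RPE) and, beneath it, the vascular choroid. All animals were male mice of the strain C57BL/6 (C57BL/6J in the study's methods), aged 8 to 10 weeks when provided, and RNA was sequenced from 3 untreated control mice and 3 mice with laser-induced subretinal fibrosis (SRF). The SRF mice received 4 laser burns in each eye, each lesion was burned again after 10 days, and RNA was extracted 20 days after that second burn. The burns touch only small spots of the eyecup, so RNA of the lesions is mixed with RNA of the tissue between them.

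Periocular mesenchyme comes from the neural crest and from mesoderm and gives rise to the choroidal stroma, the sclera, the corneal stroma, the pericytes of eye vessels and the connective tissue of the eye muscles. Its transcription factors are of several families: paired-type homeobox (Prrx1, Prrx2), forkhead (Foxc1, Foxc2), basic helix-loop-helix (Twist2, Tcf21), homeobox (Meox2), zinc finger (Osr1) and T-box (Tbx15). Retinoic acid made by the eye and hedgehog signals from the choroid are known cues for these cells in development. In adults several of these factors stay on in fibroblasts and in cells around vessels.

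The members differ in the base composition of their start sites and of their transcripts. The 250 bases before the RefSeq start (GRCm38.p6) were found for 6 of the 9 genes. Those of the homologous pair Prrx2 and Prrx1, and of Foxc1, are shown 5′ to 3′ on the gene's own strand, because the pair differed in its measured levels and because Foxc1 had the most CpG of the 6. Capitals mark the GC box GGGCGG on either strand and the homeodomain core TAATTA.
Prrx2, chr2:30845117-30845366, plus strand: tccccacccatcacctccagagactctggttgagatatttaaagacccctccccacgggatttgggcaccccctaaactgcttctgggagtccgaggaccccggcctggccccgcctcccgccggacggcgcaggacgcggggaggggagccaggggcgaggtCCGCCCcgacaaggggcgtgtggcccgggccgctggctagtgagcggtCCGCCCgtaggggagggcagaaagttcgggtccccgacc
Prrx1, chr1:163313651-163313900, minus strand: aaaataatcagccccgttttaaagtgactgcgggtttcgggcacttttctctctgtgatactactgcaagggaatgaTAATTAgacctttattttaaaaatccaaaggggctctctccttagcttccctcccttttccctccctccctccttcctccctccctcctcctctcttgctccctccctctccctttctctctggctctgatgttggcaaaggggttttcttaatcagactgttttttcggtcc
Foxc1, chr13:31806396-31806645, plus strand: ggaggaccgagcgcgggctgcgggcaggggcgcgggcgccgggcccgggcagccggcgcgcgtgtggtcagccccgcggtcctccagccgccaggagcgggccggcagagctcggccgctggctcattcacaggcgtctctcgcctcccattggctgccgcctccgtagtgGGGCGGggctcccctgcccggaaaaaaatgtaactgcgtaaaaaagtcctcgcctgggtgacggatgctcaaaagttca
The Prrx2 sequence held 21 CpG dinucleotides at a GC content of 70%, and 83.7% of the 32851 promoter windows of the table held fewer. That of Prrx1 held 4 CpG at 47.6% GC, below the median of 6 over all windows. That of Foxc1 held 29 CpG at 70.8% GC. Among those not shown, Twist2 was the closest to Prrx2, with 23 CpG at 68.8% GC and 4 copies of GGGCGG, while Meox2 held 12 CpG and Tcf21 held 5. GGGCGG was found 2 times before Prrx2, 1 time before Foxc1 and not before Prrx1, and 32.7% of all windows of this length held it. TAATTA was found 1 time before Prrx1, against 4.84% of all windows. These matches describe the letters of the windows only. The Prrx2 window lies inside the gene as annotated by GENCODE, which begins at position 30834972, so an earlier start is also annotated. The windows of Prrx1 and Foxc1 reach into their annotated genes.

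Prrx1 and Prrx2 encode closely related proteins, so reads could in principle be shared between the genes. None of the 1417 words of 25 nt in the longest Prrx2 transcript occurred in Prrx1. The longest stretch common to both was the 17 nt run acattcaacagcagcca, in coding exon 2 of each gene (chr2:30878472-30878488 in Prrx2, chr1:163261943-163261959 in Prrx1, GRCm38). Foxc1 and Foxc2 share more, in the coding sequence of their single exons, where 48 of the 2701 words of Foxc2 (1.78%) also occurred in Foxc1. Their longest common run, of 53 nt, was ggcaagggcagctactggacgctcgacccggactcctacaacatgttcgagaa (chr8:121117032-121117084 in Foxc2, chr13:31807646-31807698 in Foxc1). A read lying wholly within that stretch could be assigned to either gene, while a longer read would reach beyond it. Foxc2 also lies within the readthrough gene Gm20388 on the same strand, which has a row of its own in the count tables, and 6 other members overlap genes that have none. Prrx2 and Foxc1 overlap no annotated gene.

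The libraries held between 13667310 and 24356023 counts on genes, and 3 counts correspond to 0.123 to 0.220 on the counts-per-million scale (CPM). Levels are given in CPM after TMM normalization, which sets the libraries to a common level of most genes. Marker genes showed that the 6 samples were not alike in makeup. The summed level of 19 photoreceptor markers reached 14019 CPM for control 1 and 13563 CPM for SRF 3, against 814 to 1931 CPM in the other 4 libraries. RPE markers were plentiful in every library, between 33807 and 56182 summed CPM, with all SRF libraries below all control libraries. Macrophage markers were higher in all SRF libraries, at 3714 to 5390 against 1589 to 2023 summed CPM. For RPE markers 5 of 14 and for macrophage markers 10 of 15 had an unadjusted p under 0.05 in edgeR's quasi-likelihood test, the former all lower (2.85% of all tested genes) and the latter all higher (4.16%). None was called by edgeR, whereas DESeq2 called 6 macrophage and 2 RPE markers (1.14% of all genes). Fibroblast markers ran from 6196 to 13895 summed CPM and extraocular muscle markers from 1302 to 4699, in both cases with overlapping groups. All 11 tested muscle markers and 26 of 27 tested fibroblast markers had an estimate above 0 (50.3% of all genes). Ocular surface epithelium markers, all 10 tested with an estimate below 0 and overlapping sums of 339 to 2532 CPM, and lens markers, 5 of 8 lower at an unadjusted p under 0.05 and 1 called by DESeq2, with 4 of 16 not listed, were the other lists with a leaning. The lens genes Crygb, Crygs, Cryaa and Cryba1 entered the fit only through control 2 and control 3. Their lower values in SRF are thus not independent of the count filter. Mural, endothelial, melanocyte, Schwann and inner retina markers had medians between 0.03 and 0.13 on the log2 scale. The lowest count of any listed gene in any library was 1, so a listed marker could not be at 0. Markers that are not listed have no value here. In bulk tissue such as this, fewer cells of a type cannot be told apart from less RNA per cell.

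**Figure D1:**
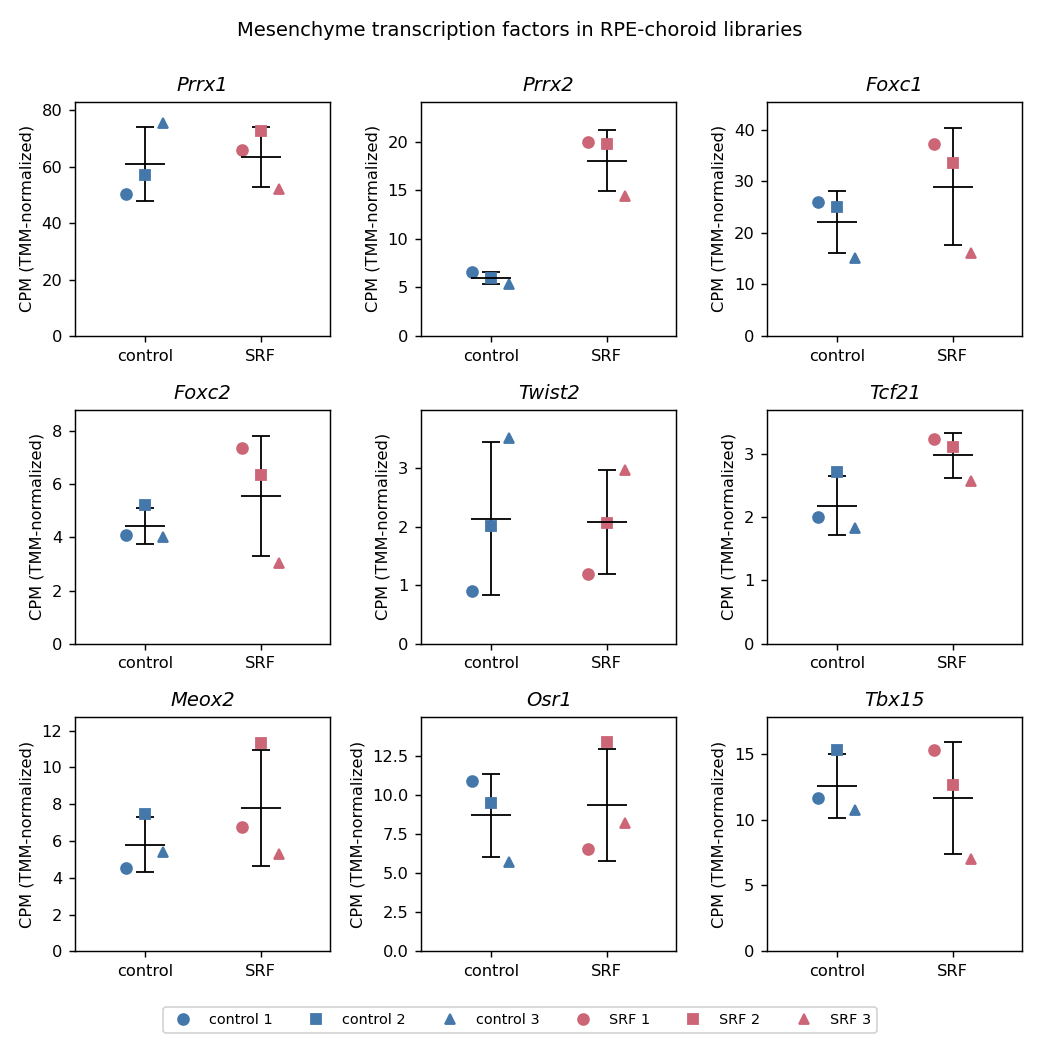
TMM-normalized CPM (y axes, each starting at 0) of the 9 factors in each library, with the group mean and SD over 3 mice as black bars. Prrx2 sits between 5.38 and 6.63 CPM in control and between 14.5 and 19.95 CPM in SRF, and each other factor has groups that overlap.

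Prrx2 (ENSMUSG00000039476, chr2:30834972-30881251, plus strand) is a homeobox factor of limb, facial and ocular mesenchyme that is also active in fetal skin fibroblasts. Its level was 6.63, 5.97 and 5.38 CPM in control 1 to 3 and 19.95, 19.7 and 14.5 CPM in SRF 1 to 3, from 89 to 129 counts and 258 to 369 counts. Every SRF library was above every control library. The group means were 5.99 ± 0.62 and 18.0 ± 3.11 CPM (SD, n = 3 mice), and the fitted difference, SRF minus control, was 1.59 ± 0.20 (SE) on the log2 scale, a fold of 3.02. This placed it as number 19 of 13454 tested genes by signed log2 fold change, a rank taken from the rise it was picked for. SRF 3, the library with high photoreceptor markers, was the lowest of the SRF group, and control 1, the other such library, was the highest of the control group. Leaving both out gave a difference of 1.81.

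Prrx1 (ENSMUSG00000026586, chr1:163245119-163313710, minus strand), the homologue of Prrx2 and a marker of fibroblast lineages, had control values of 50.2, 56.9 and 75.5 CPM and SRF values of 65.8, 72.6 and 51.9 CPM. The groups overlapped fully, with the highest value in control 3 and SRF 3 close to control 1. The difference was 0.06 ± 0.20 (SE) on the log2 scale, with a 95% confidence interval of -0.40 to 0.52 and an adjusted p of 0.9999 in edgeR's quasi-likelihood test.

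Levels of the 2 homologues can be compared per length in FPKM. Prrx2 stood at 5.62, 4.80 and 4.42 FPKM and Prrx1 at 9.18, 10.3 and 13.9 FPKM in the control mice. In the SRF mice Prrx2 was at 15.5, 15.4 and 10.8 FPKM and Prrx1 at 12.4, 14.0 and 9.86 FPKM. Prrx1 thus had the higher FPKM in 3 of 3 control libraries and Prrx2 in 3 of 3 SRF libraries. Prrx2 made up 37.97%, 31.9% and 24.2% of the summed FPKM of the pair in control and 55.6%, 52.3% and 52.3% in SRF. As a log2 ratio of FPKM, Prrx2 to Prrx1 was -1.15 ± 0.47 in control and 0.20 ± 0.11 in SRF (SD, n = 3), a difference of 1.35. In counts, which are not scaled by transcript length, Prrx1 was the higher in every library. There the log2 ratio was -3.33 ± 0.45 in control and -1.82 ± 0.08 in SRF, a difference of 1.51. Which gene of the pair is higher thus depends on the transcript lengths behind the FPKM values. No test is given for either ratio, since both contain the value for which Prrx2 was chosen.

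**Figure D2:**
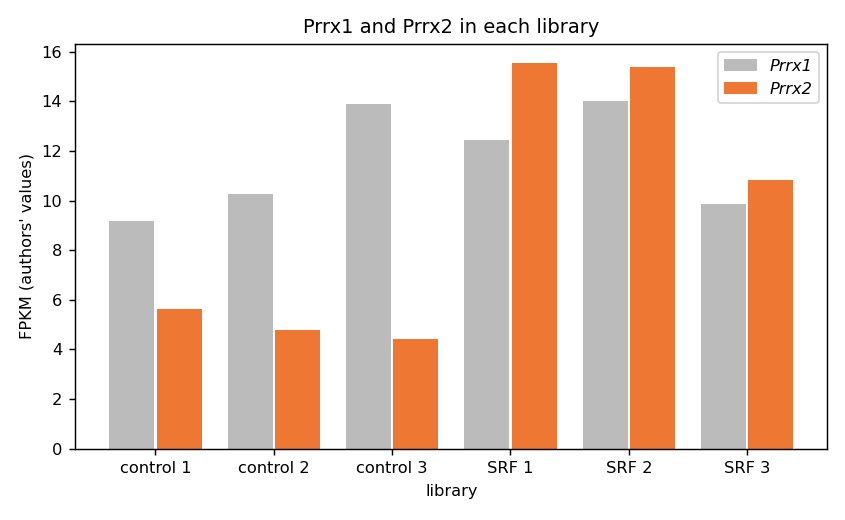
The authors' FPKM values (y axis) of Prrx1 in grey and Prrx2 in orange for each of the 6 libraries. The orange bar is the lower of each pair in the control libraries and the higher in the SRF libraries, where it reaches 15.5 FPKM.

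None of the other 8 factors was called different between the groups in edgeR's quasi-likelihood test (adjusted p under 0.05, together with a change of 0.5 or more in either direction on the log2 scale). Over all 13454 tested genes this rule called 0 (0.0%), against which the members' count is to be read. With an unadjusted p under 0.05 there were 0 of 8 (7.01% of all tested genes), with groups that do not overlap 0 of 8 (13.1%), and by DESeq2 0 of 8 (1.14%). Of the 8 estimates, 6 were above 0 (50.3% of all genes) and 4 of the 8 were at or above 0.3 (12.6%). Tcf21 is counted in both, although it entered the fit only through its SRF libraries. The median of the 8 was 0.22, with the median of all genes at 0.00. The standard errors of the 8 ran from 0.20 to 0.59, while the median gene had 0.19, so differences of the size seen here could not be resolved.

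**Figure D3:**
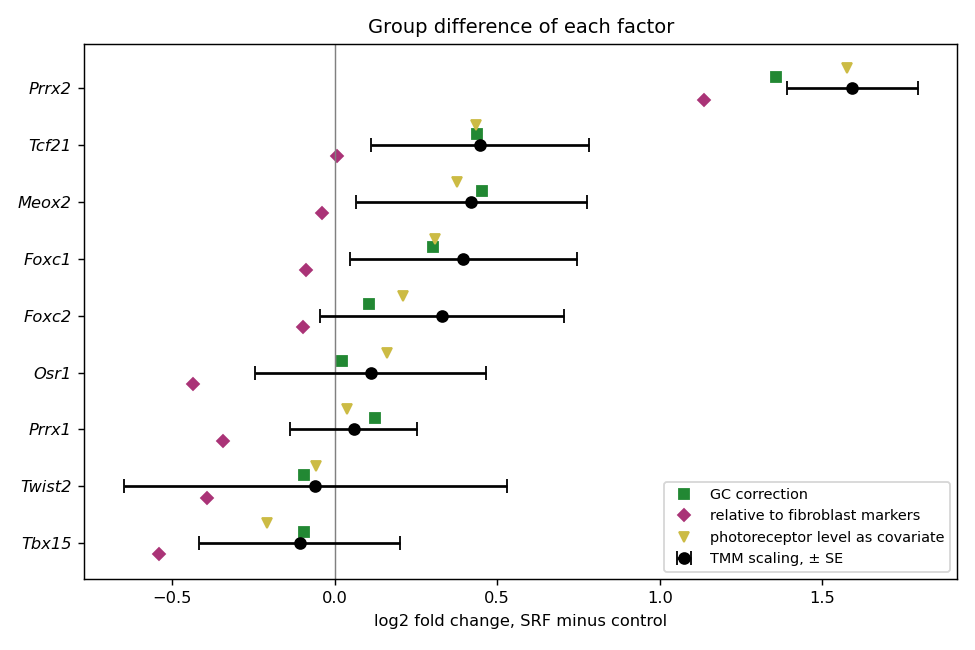
Log2 fold change, SRF minus control, of each factor (black points, bars ± SE), with the estimate after a GC correction (green squares), with the photoreceptor level as a covariate (yellow triangles) and relative to the fibroblast markers (purple diamonds). Prrx2 lies between 1.14 and 1.59 in all 4 versions, and the purple diamonds of 7 of the other 8 factors lie below 0, with Tcf21 at 0.01.

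The forkhead factors Foxc1 and Foxc2 act together in the neural crest cells of the front of the eye and in vessels, and mutations of the former cause malformation of the anterior segment. Foxc1 (ENSMUSG00000050295, chr13:31806633-31812476) had 26.1, 25.1 and 15.1 CPM in the control mice and 37.3, 33.6 and 16.02 CPM in SRF. SRF 1 and SRF 2 were above all controls, whereas SRF 3 lay beside control 3 at the bottom. The difference was 0.40 ± 0.35 (95% confidence interval -0.43 to 1.22, adjusted p = 0.950 by edgeR). Foxc2 (ENSMUSG00000046714, chr8:121116171-121118895) showed 4.09, 5.21 and 4.01 CPM in control mice and 7.35, 6.35 and 3.02 CPM in SRF, with SRF 3 the lowest of all 6. Its difference was 0.33 ± 0.38 (-0.56 to 1.22, adjusted p = 0.990 by edgeR). Without SRF 3 the estimates were 0.69 for Foxc1 and 0.63 for Foxc2, without SRF 1 they were 0.17 and 0.0783, and without control 3 that of Foxc1 was 0.18. Without control 1 and SRF 3 together they were 0.83 and 0.58, with adjusted p of 0.129 and 0.354 by edgeR.

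The log2 ratio of Foxc2 to Foxc1 counts was -2.67, -2.27 and -1.92 in control and -2.34, -2.41 and -2.41 in SRF. The means of -2.28 ± 0.38 and -2.38 ± 0.04 differed by -0.10 (exact two-sided permutation test, p = 0.7, where 3 mice against 3 cannot give a p under 0.1). The 3 SRF ratios lay within the range of the control ratios. A test of this size does not show that the ratio was the same in both groups, and without control 3 the difference was 0.0845.

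Of the basic helix-loop-helix factors, Tcf21 (ENSMUSG00000045680, chr10:22817281-22820174) is known for its part in fibroblast and visceral mesenchyme development. It was low, at 2.01, 2.71 and 1.84 CPM in control and 3.24, 3.12 and 2.58 CPM in SRF, from 27 to 60 counts. No control library exceeded 50 counts, so Tcf21 entered the fit only through SRF 1 and SRF 2, at 60 and 56 counts. Its higher estimate is thus not independent of the count filter. A single control library, control 2, exceeded the lowest SRF library. The difference of 0.45 ± 0.34 (-0.35 to 1.24) had an adjusted p of 0.930 by edgeR and lay within 1 SE of the estimates of Meox2 and Foxc1. Twist2 (ENSMUSG00000007805, chr1:91801461-91848028), a dermal and osteoblast repressor, showed 0.89, 2.01 and 3.50 CPM in control mice and 1.19, 2.06 and 2.97 CPM in SRF. The counts were 12 to 84 in control and 22 to 53 in SRF, so the control range enclosed that of SRF, and the highest library had 3.92 times the CPM of the lowest. Its difference was -0.06 ± 0.59 (-1.45 to 1.33, adjusted p = 0.9999 by edgeR), the widest interval of the members. The sign of this value turned to above 0 without control 3 (0.50) and without SRF 1 (0.21), while without control 1 it was -0.42.

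Meox2 (ENSMUSG00000036144, chr12:37108540-37179534), a homeobox factor of muscle precursors and of vessels, showed 4.54, 7.49 and 5.38 CPM in control mice and 6.76, 11.3 and 5.27 CPM in SRF. Mainly SRF 2 stood out as high. The difference was 0.42 ± 0.36 (-0.42 to 1.26, adjusted p = 0.947 by edgeR), and it was 0.0497 without SRF 2, 0.28 without control 1 and 0.65 without control 2. Osr1 (ENSMUSG00000048387, chr12:9570116-9581500), a zinc finger factor of connective tissue progenitors, showed 10.9, 9.49 and 5.72 CPM in control mice and 6.54, 13.4 and 8.18 CPM in SRF. In SRF, 2 of its 3 libraries lay within the control range, and the difference was 0.11 ± 0.36 (-0.73 to 0.95, adjusted p = 0.9999 by edgeR). It was -0.24 without SRF 2 and 0.32 without SRF 1. Tbx15 (ENSMUSG00000027868, chr3:99240381-99354259), a T-box factor of skeletal and muscle development, showed 11.6, 15.3 and 10.8 CPM in control mice and 15.3, 12.6 and 7.002 CPM in SRF. SRF 3 was the lowest of the 6 libraries and the difference was -0.11 ± 0.31 (-0.84 to 0.63, adjusted p = 0.9999 by edgeR), or 0.15 without SRF 3 and -0.36 without SRF 1.

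Ordered by mean FPKM, the control libraries had Prrx1 (11.1 ± 2.46) first, then Prrx2 (4.95 ± 0.61), Osr1 (4.26 ± 1.31), Tbx15 (3.74 ± 0.60), Foxc1 (3.70 ± 1.01), Meox2 (2.41 ± 0.62), Tcf21 (1.68 ± 0.36), Foxc2 (1.6 ± 0.23) and Twist2 (1.57 ± 0.96; SD, n = 3 throughout). Only the step from Prrx1 to Prrx2, 6.16 FPKM, was larger than the sum of the SDs of the 2 neighbours (3.07). In the SRF libraries Prrx2 (13.9 ± 2.69) and Prrx1 (12.1 ± 2.10) led, followed by Foxc1 (5.03 ± 1.99), Osr1 (4.97 ± 1.76), Tbx15 (3.57 ± 0.81), Meox2 (3.35 ± 1.38), Tcf21 (2.36 ± 0.28), Foxc2 (2.08 ± 0.85) and Twist2 (1.56 ± 0.67). Here the sole step above the summed SDs was that from Prrx1 to Foxc1, 7.07 against 4.09 FPKM. The order below the leading pair was otherwise within the spread of neighbouring genes.

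The members' libraries did not follow 1 common order. SRF 1 was the highest library for 5 of the 9 factors and SRF 2 for 2, while control 3 was the highest for Prrx1 and Twist2. The lowest library was control 3 for 4 factors, control 1 for 3 and SRF 3 for 2. The library order of some members resembled that of a marker list. From low to high, Foxc2 ran SRF 3, control 3, control 1, control 2, SRF 2 and SRF 1, which is the order of the summed extraocular muscle markers (1302, 2106, 2115, 3386, 3886 and 4699 CPM). Control 3 and control 1 were nearly tied in both, with Foxc2 at 4.01 and 4.09 CPM. Tbx15 had the same order except that SRF 2 and control 2 changed places, and its own order was that of the summed endothelial markers (2206 CPM in SRF 3 to 2955 CPM in SRF 1), whose range was far narrower. Twist2 was lowest in control 1 and highest in control 3 and SRF 3, which were also the lowest and the highest libraries for the summed fibroblast markers. The 11 tested muscle markers had a median log2 fold change of 0.42 with overlapping groups and 0 with an unadjusted p under 0.05. The part of these markers in the members' values was not tested, and these genes and lists were set side by side after their values had been seen.

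**Figure D4:**
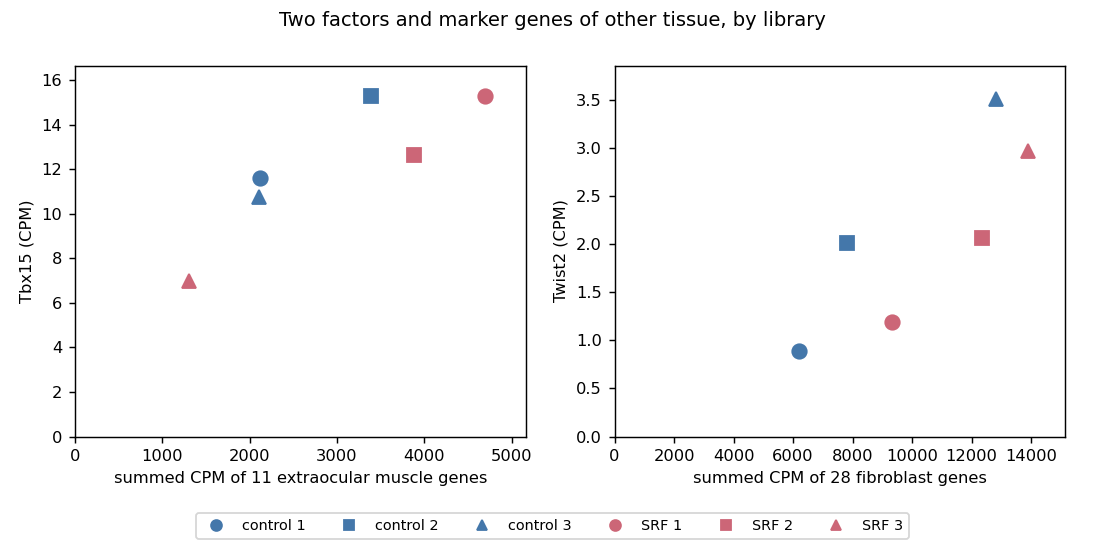
Left, Tbx15 CPM (y axis) against the summed CPM of 11 extraocular muscle genes (x axis). Right, Twist2 CPM against the summed CPM of 28 fibroblast genes, each point being 1 library. The library with the fewest muscle counts, SRF 3 at 1302 CPM, has the lowest Tbx15, and that with the fewest fibroblast counts, control 1 at 6196 CPM, has the lowest Twist2.

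Fibroblast markers had a median log2 fold change of 0.35 over 27 tested genes, 26 of which were above 0. At an unadjusted p under 0.05 there were 7 higher (4.16% of all genes) and 1 lower (2.85%), and none was called. Lox, a collagen cross-linking enzyme, had 30.9 ± 17.0 CPM in the control mice and 78.0 ± 22.5 CPM in the SRF mice (log2 fold change 1.33, adjusted p = 0.521 by edgeR). Fap, a protease of activated fibroblasts, was the exception at 159 ± 7.15 and 116 ± 9.03 CPM (-0.46, adjusted p = 0.370). Relative to the mean log2 level of these markers, an alternative added after the data had been seen, Prrx2 differed by 1.14, Tcf21 by 0.01, Meox2 by -0.04, Foxc1 by -0.09, Foxc2 by -0.10, Prrx1 by -0.35, Twist2 by -0.39, Osr1 by -0.44 and Tbx15 by -0.54. On that scale the median of the 8 was -0.22 in place of 0.22.

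A wider list of 73 transcription factors of mesenchyme and fibroblasts was counted in the same way. Of the 66 that were listed, 57 were tested, and 43 of these had an estimate above 0 (75.4%, against 50.3% of all genes). On the higher side 4 had an unadjusted p under 0.05 (7.02%, against 4.16% of all genes) and none on the lower side, and none was called. In 7 the SRF libraries were all above the control libraries (12.3%, against 6.71%). The median was 0.15 and the highest value was 0.99. Snai1, a repressor known from epithelial-mesenchymal transition, was at 9.68 ± 1.16 and 18.5 ± 5.27 CPM (0.93 ± 0.24, adjusted p = 0.407 by edgeR). Runx1, a factor of blood cells and of activated stroma, was at 15.3 ± 3.56 and 24.4 ± 5.41 CPM (0.66, adjusted p = 0.603). Creb3l1, which acts in collagen-secreting cells, was at 16.1 ± 4.39 and 25.9 ± 6.13 CPM (0.68, adjusted p = 0.619). Ebf1, a factor of pericytes and fat precursors, was at 56.4 ± 4.99 and 70.7 ± 3.37 CPM (0.33, adjusted p = 0.595).

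The signals that act on this mesenchyme in development did not move in a single direction. In retinoic acid signalling, 4 of 16 tested genes were higher (25%, against 4.16% of all genes) and 1 lower (6.25%, against 2.85%) at an unadjusted p under 0.05, none was called by edgeR, and the median was 0.07. Cyp26a1, which degrades retinoic acid, had a mean of 43.1 ± 18.9 CPM in control mice and of 103 ± 27.7 CPM in SRF mice (1.26 ± 0.34, adjusted p = 0.421 by edgeR). It was the single gene of this list called by DESeq2 (adjusted p = 0.0176). Rdh10, which makes retinaldehyde and is abundant in RPE, was at 2207 ± 355 and 1404 ± 283 CPM (-0.65 ± 0.19, adjusted p = 0.434 by edgeR). The receptors Rxrb and Rxra had estimates of 0.71 and 0.37, with adjusted p of 0.478 and 0.628 by edgeR. In hedgehog signalling, 1 of 12 tested genes was higher and 1 lower at an unadjusted p under 0.05 (8.33% each, against the same 4.16% and 2.85%), with a median of 0.02. Gas1, a co-receptor, was at 0.52, the ligand Ihh at 0.51, the target and receptor Ptch1 at -0.22 and the inhibitor Hhip at -0.43 on the log2 scale, and none of the 4 was called, with adjusted p between 0.660 and 0.808 by edgeR.

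The genes beside Prrx2 on chromosome 2 are described by their own values. Prrx2 was picked for its rise and 99.9% of tested genes lay below it, so a comparison with its value says little. Asb6, 4.64 kb away on one side, differed by 0.26 ± 0.13 (adjusted p = 0.808 by edgeR), with all SRF libraries above all control libraries. Ptges, the prostaglandin E synthase gene 8.22 kb away on the other side, was at 136 ± 7.33 and 108 ± 9.01 CPM, a difference of -0.33 ± 0.11 (adjusted p = 0.562 by edgeR), with all SRF libraries below all control libraries. Foxl1, a forkhead gene of gut mesenchyme 9.05 kb from Foxc2, was at 1.54 ± 0.18 and 2.94 ± 0.54 CPM (0.93 ± 0.35, adjusted p = 0.624 by edgeR), without overlap between the groups. It had 19 to 42 counts in control and entered the fit only through SRF 1 and SRF 2, at 63 and 55 counts. Its difference and its lack of overlap are thus not independent of the count filter. Foxf2, the forkhead neighbour of Foxc1 at a distance of 175 kb, differed by 0.08 and Gmds, on its other side, by 0.16. None of the 18 nearest listed genes of the 9 members was called, and in 6 of the 18 the groups did not overlap (13.1% of all tested genes), the others being Ttc32 (-0.55) and Rdh14 (-0.17) beside Osr1 and Wars2 (0.29) beside Tbx15.

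By the root mean square difference of centred log2 CPM over the 6 libraries, the 5 genes most like Prrx2 were Metrnl (0.165), Bcan (0.179), Jund (0.179), Smarcd3 (0.191) and Fjx1 (0.200). Metrnl encodes a secreted protein, Bcan the proteoglycan brevican, Jund a subunit of the factor AP-1 and Smarcd3 a subunit of a chromatin remodelling complex. The paper reports that its qRT-PCR, run on RPE-choroid with sclera, bore out most of the genes it checked. The differences of Jund and Smarcd3 were not borne out there, and Prrx2 was not among the genes checked. Fjx1 entered the fit only through its SRF libraries, at 62 to 122 counts. The log2 fold changes of the 5 genes ran from 1.40 for Metrnl to 1.64 for Smarcd3. These genes are given as a description because they were chosen for this likeness. No member was among them. The nearest was Tcf21 at 0.588, with 3.75% of all tested genes closer to Prrx2, then Foxc1 at 0.678 (10.4%). Prrx1 was at 0.792 (35.6%), Tbx15 at 0.898 (70.5%) and Twist2 at 1.09 (92.4%). Tcf21, like Fjx1, entered the fit only through SRF libraries, so its place is not independent of the count filter. The profile of Prrx2 holds the rise it was picked for, so these shares are a description only.

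Transcript GC content moved with the difference between the groups across all genes. Spearman's rho between log2 fold change and GC content was 0.30 over 13452 genes, which are not independent replicates. The median log2 fold change was -0.10 in the 1346 genes with the lowest GC content and 0.14 in the 1346 with the highest. Prrx2, at 63.6%, was above 99.5% of tested genes in GC content, and its 5 most similar genes were between 58.1% and 67.1%. Foxc2, at 62.0%, was above 98.6% of genes and had an estimate of 0.33. Prrx1 was at 43.6% and above 19.4% of genes. After the GC trend of each library was removed, Prrx2 differed by 1.36, Foxc2 by 0.10, Foxc1 by 0.30 and Prrx1 by 0.12. The part of GC content in the remaining difference of Prrx2 was not tested.

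**Figure D5:**
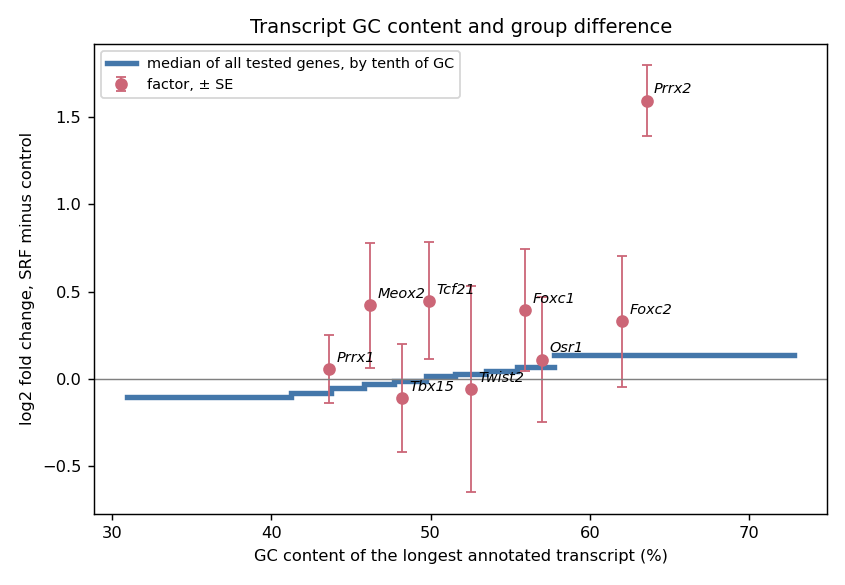
Log2 fold change, SRF minus control (y axis), against the GC content of the longest annotated transcript (x axis, percent) for the 9 factors (points, bars ± SE), with the median of all tested genes in each of 10 classes of GC content as blue lines. The blue lines climb from -0.10 to 0.14, and Prrx2, which was picked for its rise, stands at 1.59.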

How the data were processed

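Total RNA of RPE-choroid from 3 control and 3 SRF mice was sequenced on an Illumina platform, and groups and mouse numbers were taken from the sample labels. The authors filtered reads with FASTP, counted them on genes with StringTie and deposited whole-number counts without normalization, as well as FPKM values scaled by transcript length and mapped reads. The aligner, genome build, annotation and strandedness are not given in the sources used here; GENCODE M21 on GRCm38, which holds 15659 of the 15663 identifiers, gave positions and GC content, and RefSeq gave promoters. Where strand was not used in counting, reads of overlapping antisense genes cannot be told apart from those of a member.

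The 13454 genes that exceeded 50 counts in 2 or more samples were fitted (2209 others were not) with edgeR 4.0.16 in R 4.3.3 (TMM, quasi-likelihood test, group as the only term), with Benjamini-Hochberg adjustment over all tested genes. The authors' own test was DESeq2. CPM values are TMM-normalized, and errors are SDs over mice or SEs of the fit. Results were recomputed with DESeq2 1.42.0, with limma 3.58.1 on log2(FPKM + 0.1) and log2(FPKM + 1), with other normalization and filters, the newer quasi-likelihood form, GC and photoreceptor corrections, a replicate block and leaving out libraries. The named genes are the 9 members, up to 4 genes of each list with the smallest unadjusted p, the nearest listed genes beside each member and the 5 genes most like Prrx2. The members and lists were chosen with earlier results of these data known. The fitting steps were tested on simulated data. Libraries of the same group differed by 15.7 to 89.4 in chi-square per degree of freedom, so no pair within a group agreed within sampling noise.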

Additional observations from a re-analysis of the deposited data

How the results depend on the processing

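None of the 8 factors other than Prrx2 was called under the 18 alternatives. The count of called genes, 0 of 13454 in edgeR, was 153 with DESeq2, 154 without control 1 and SRF 3 together, 2 with limma on log2(FPKM + 0.1) and 2 on log2(FPKM + 1), and 1 with the newer quasi-likelihood form, without a filter, with filterByExpr and with the photoreceptor covariate. It ran from 0 to 5 when single libraries were left out, with 5 without control replicate 1. The cause of these shifts was not tested. Relative to the fibroblast markers, the sign turned for Prrx1 (-0.35), Foxc1 (-0.0897), Foxc2 (-0.0981), Meox2 (-0.0383) and Osr1 (-0.44), and the median of the 8 was -0.22. Twist2 was at 0.0895 and 0.0320 with limma on log2(FPKM + 0.1) and log2(FPKM + 1), and Tbx15 at 0.105 without control 1 and SRF 3. Prrx2 ran from 1.14 relative to the fibroblast markers to 1.81 without those libraries, with 1.31 on log2(FPKM + 1) and 1.36 after the GC correction.

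Leaving out single libraries gave 0.17 to 0.69 for Foxc1, 0.0783 to 0.63 for Foxc2, 0.0497 to 0.65 for Meox2, -0.24 to 0.32 for Osr1, -0.0620 to 0.24 for Prrx1, 1.51 to 1.73 for Prrx2, -0.36 to 0.15 for Tbx15, 0.33 to 0.63 for Tcf21 and -0.42 to 0.50 for Twist2. The difference of the Foxc2 to Foxc1 ratio ran from -0.29 to 0.0845, the latter without control replicate 3.

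Same-numbered mice are different animals, so the numbers do not pair the samples by mouse. Their deviations from the group means correlated at -0.479, 0.486 and -0.3. Control 1 and SRF 3, the libraries with high photoreceptor markers, correlated at 0.613. Such correlations cannot show whether same-numbered libraries were processed together. With the replicate block no member was called, Twist2 was at 0.0530, Foxc1 at 0.34, Tcf21 at 0.46 and Prrx2 at 1.58.

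With 3 mice a group and SEs of 0.20 to 0.59, shifts of the size seen in Foxc1, Tcf21 and Meox2 could not be resolved.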
